A study of Homo sapiens with 6 samples.

Results

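The genes described here are the 9 members of the thioredoxin and peroxiredoxin system named TXN, TXNRD1, SRXN1 and PRDX1 to PRDX6, chosen by name among the 58735 genes of the deposited table. Each name matched 1 row of the table. All 9 averaged 1 FPKM (fragments per kilobase of exon, corrected for sequencing depth) or more over the 6 libraries, so all 9 were among the 12128 genes tested. The libraries were made from MDA-MB-231, a basal-like, mesenchymal line of human breast cancer, carrying a non-targeting shRNA that the labels call SCR. The labels give the genotype of all 6 libraries as WT. Of these, 3 were unirradiated (0 Gy), and 3 had received 10 Gy from a 137Cs irradiator 24 h before RNA was taken. The comparison asks how irradiation changed the expression of these cells. The labels do not say whether replicates were separate cultures, so a p-value measures only the spread between these samples, which may be technical.

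Thioredoxin is a small protein that reduces disulfides in other proteins, and thioredoxin reductase, a selenoprotein, restores it with electrons from NADPH. Peroxiredoxins use a reactive cysteine to remove hydrogen peroxide and lipid hydroperoxides, and most of them are then reduced by thioredoxin. Sulfiredoxin repairs peroxiredoxins whose cysteine has been oxidized further. Several genes of the system carry antioxidant response elements, sites bound by NRF2 together with a small MAF protein such as MAFF.

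Recovered reads on genes ranged from 15643641 to 21928560 at 0 Gy and from 17570365 to 28861781 at 10 Gy. The FPKM values of a library summed to between 269611 and 278380 at 0 Gy and to between 246920 and 254918 at 10 Gy, so the totals of the doses did not overlap. Of 5 markers of the line, VIM, CD44, EGFR and KRT18 had means between 29.8 and 301 FPKM at 0 Gy, while SPARC was at 0.270 FPKM. Among luminal and receptor markers listed as lacking in the line, PGR was listed at 0 in every library and ESR1 did not exceed 0.0169 FPKM. The others on that list had reads, with means at 0 Gy of 0.324 FPKM for CDH1, 1.44 for EPCAM and 7.08 for ERBB2 (7.67 at 10 Gy). Markers of leukocytes, endothelium, liver and fibroblasts (5 genes) summed to between 4.22 and 4.35 FPKM at 0 Gy and to between 6.03 and 6.24 FPKM at 10 Gy, nearly all of it COL1A1 and PECAM1. Of these, CD3E was listed at 0 in every library, and PTPRC and ALB did not exceed 0.0193 FPKM. The part of this shift in the results below was not tested.

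TXN, TXNRD1 and SRXN1, which encode thioredoxin, its cytosolic reductase and sulfiredoxin, were lower 24 h after 10 Gy, at 0.739, 0.675 and 0.668 times their 0 Gy means. The 6 peroxiredoxin genes differed much less, with 10 Gy means between 0.875 and 0.947 times those at 0 Gy. With limma on log2(FPKM + 1) and Benjamini-Hochberg adjustment over all genes tested, 6 of the 9 genes were called lower and 0 higher, and 3 were not called (PRDX2, PRDX5 and PRDX6). Across all genes tested, 23.7% were called lower and 11.9% higher. At a change of at least 1.3-fold, 3 of the 9 genes were called lower (TXN, TXNRD1 and SRXN1) and 0 higher, against 2.95% and 2.82% of all genes, although TXN passed 1.3-fold in only 1 of 5 other scalings. The 3 libraries at 10 Gy lay below the 3 at 0 Gy for 7 of the 9 genes, and for 32.8% of all genes tested. In a bulk sample, fewer cells with a transcript and less of it per cell cannot be told apart.

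**Figure D1:**
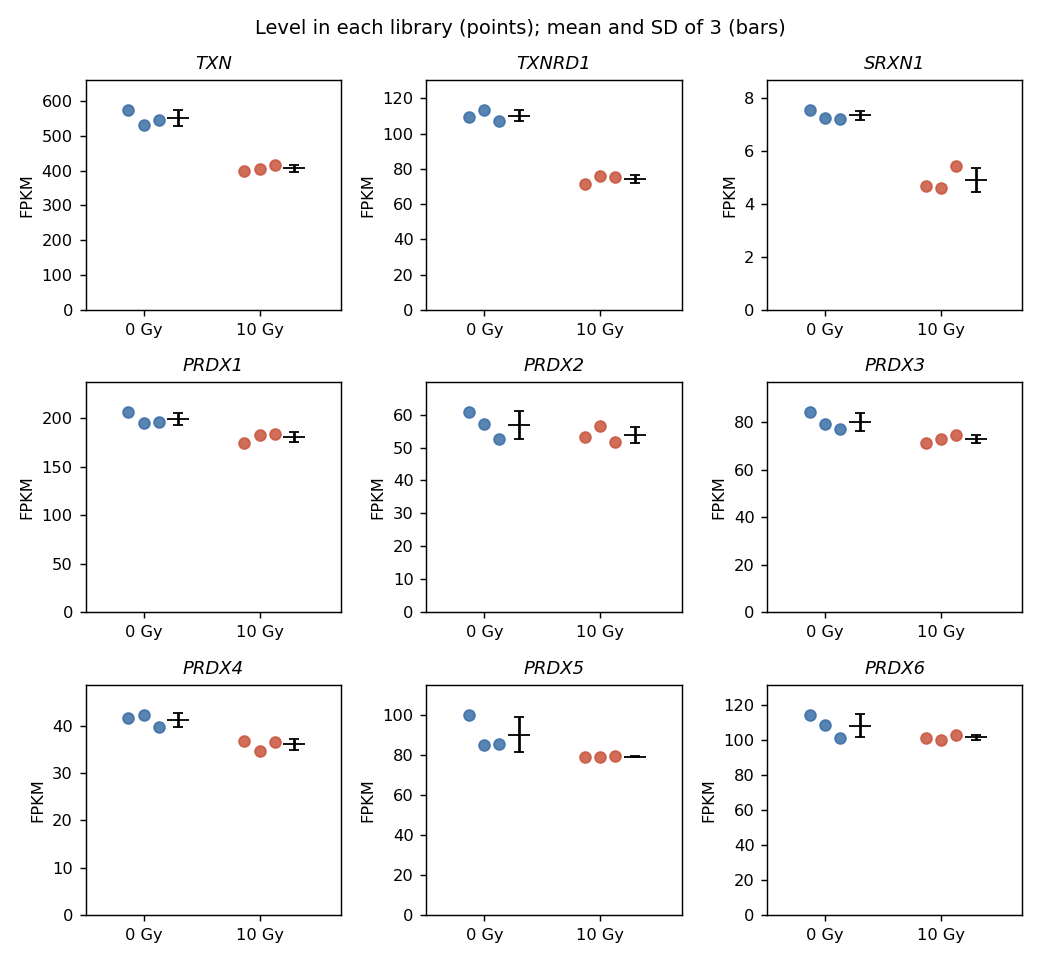
Level of each gene in FPKM (vertical axes, from 0) in the 3 libraries at 0 Gy (blue) and the 3 at 10 Gy (red), with black bars for the mean and SD of each dose. TXN, TXNRD1 and SRXN1 show a wide gap between doses, and the PRDX2 and PRDX6 values of both doses overlap.

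TXN lies on chromosome 9 of GRCh38 from 110243811 to 110256640 on the minus strand. At 0 Gy it was at 574, 530 and 546 FPKM, and at 10 Gy at 398, 405 and 417 FPKM. The lowest library at 0 Gy was thus well above the highest at 10 Gy. The means were 550 ± 22.6 and 407 ± 9.41 FPKM (SD, n = 3 each), from between 8446 and 13985 recovered reads per library. The log2 change was -0.43 (standard error 0.045, 95% interval -0.54 to -0.33, adjusted p = 0.00096). By FPKM, TXN was the most abundant of the 9 genes at both doses, and ranked 41 among protein-coding genes at 0 Gy.

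TXNRD1 lies on chromosome 12 from 104215779 to 104350305 on the plus strand and has 24 annotated transcripts. Its levels at 0 Gy were 109, 114 and 107 FPKM, and at 10 Gy 71.5, 75.9 and 75.7 FPKM. The doses were separated by a gap wider than the spread within either, with means of 110 ± 3.17 and 74.4 ± 2.47 FPKM (SD, n = 3 each). With a log2 change of -0.56 (standard error 0.038, 95% interval -0.65 to -0.47, adjusted p = 0.00044), TXNRD1 had the largest change of the 9 genes on this scale, and 0.701% of all genes tested had a more negative one. Between 9291 and 15662 reads per library stood behind these values. The order of TXNRD1 and SRXN1 depended on the scale, since the change of SRXN1 was the larger with a pseudocount of 0.1 (-0.58 against -0.57) and the 2 were equal to 2 decimals in TPM. The gene values do not tell the transcripts apart.

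SRXN1 lies on chromosome 20 from 646615 to 653370 on the minus strand. It was the least abundant of the 9 genes, at 7.54, 7.23 and 7.20 FPKM at 0 Gy and at 4.69, 4.59 and 5.41 FPKM at 10 Gy. No library at 10 Gy reached the lowest at 0 Gy, although replicate 3 stood above the others at 10 Gy. The log2 change was -0.50 (standard error 0.059, 95% interval -0.64 to -0.36, adjusted p = 0.0015), from between 226 and 434 reads per library. Because a pseudocount of 1 is not small beside these levels, the change was larger, at -0.58, with a pseudocount of 0.1. Another annotated gene on the same strand, AL121758.1, covers 2292 of the 2698 exon bases of SRXN1 and was at 0.0194 FPKM at 0 Gy. How reads on the shared bases were assigned is not given in the sources used here, so the level of SRXN1 is uncertain.

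The start regions of these 3 genes were compared, since they were the ones called at 1.3-fold or more. RefSeq windows on GRCh38.p14, from 250 bases before to 50 after an annotated start, were at hand for 7 of the 9 genes (9 windows, with a pair each for TXNRD1 and PRDX5), and not for PRDX1 and PRDX6. They were searched on both strands for TGACNNNGC, the core of the antioxidant response element, and for TGANTCA, the AP-1 site. Bases of the windows of TXNRD1, TXN and SRXN1 that lie before the start and outside every annotated exon are printed 5′ to 3′ on the strand of the gene, with matches to TGACNNNGC in capitals. The TXNRD1 bases are chr12:104215529-104215778 (plus strand), those of TXN chr9:110256641-110256757 (minus strand) and those of SRXN1 chr20:653371-653450 (minus strand).
TXNRD1: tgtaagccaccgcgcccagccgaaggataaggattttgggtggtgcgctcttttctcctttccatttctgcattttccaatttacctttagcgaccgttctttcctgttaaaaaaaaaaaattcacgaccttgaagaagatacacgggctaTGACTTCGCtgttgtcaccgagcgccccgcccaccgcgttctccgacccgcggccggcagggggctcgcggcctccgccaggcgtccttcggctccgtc
TXN: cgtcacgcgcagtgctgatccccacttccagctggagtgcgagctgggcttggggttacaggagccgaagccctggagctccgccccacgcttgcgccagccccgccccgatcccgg
SRXN1: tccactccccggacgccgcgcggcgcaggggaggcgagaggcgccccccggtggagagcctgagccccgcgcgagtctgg

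Both TXNRD1 windows held the antioxidant response element core, and the other 7 windows did not, including those of TXN and SRXN1. Of all 35116 windows of that length, 13.3% held it. The match in the printed TXNRD1 bases begins 99 bases before the start, and a further match in that window overlaps the start. The second TXNRD1 window, around a start inside the gene at position 104287032, holds a match on the opposite strand that lies in an annotated exon (chr12:104286920-104286948, plus strand, capitals mark the match).
TXNRD1 internal start: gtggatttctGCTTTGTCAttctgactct
The AP-1 letters were found in 0 of the 9 windows and in 7.71% of all windows. A match is a run of letters and not a measured binding site, and no match says only that these letters are not in the window.

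Among the peroxiredoxins, PRDX1 and PRDX2 encode the cytosolic 2-Cys enzymes. PRDX1 (chromosome 1, from 45511036 to 45523047) was the most abundant of the 6, at 206, 195 and 196 FPKM at 0 Gy and at 175, 182 and 184 FPKM at 10 Gy. The doses did not overlap, and the log2 change was -0.14 (standard error 0.038, 95% interval -0.23 to -0.05, adjusted p = 0.025). The call was lost when any of the libraries at 10 Gy was left out, with adjusted p of 0.105, 0.0713 and 0.0506 without replicates 1, 2 and 3. MMACHC, on the opposite strand, shares 379 of the 1522 exon bases of PRDX1 and was at 2.80 FPKM at 0 Gy. Whether the counting used strand is not given in the sources used here.

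PRDX2 (chromosome 19, from 12796820 to 12801859) was at 60.7, 57.2 and 52.4 FPKM at 0 Gy and at 53.2, 56.4 and 51.7 FPKM at 10 Gy. These ranges overlapped, and the log2 change of -0.08 was not called (95% interval -0.21 to 0.06, adjusted p = 0.342). A rise or fall within that interval cannot be told from no change in these libraries. AC018761.2, on the opposite strand, shares 296 of the 2093 exon bases of PRDX2 and was at 0 FPKM in every library.

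PRDX3 encodes the mitochondrial enzyme and PRDX4 the enzyme of the endoplasmic reticulum. PRDX3 (chromosome 10, from 119167703 to 119178833) was at 84.3, 79.2 and 77.0 FPKM at 0 Gy and at 71.4, 73.1 and 74.7 FPKM at 10 Gy. Its log2 change of -0.13 (standard error 0.041, adjusted p = 0.042) was the weakest of the 6 calls, and it was lost without any library except replicate 3 at 0 Gy, with adjusted p between 0.0529 and 0.142. PRDX4 (chromosome X, from 23664262 to 23686399) was at 41.8, 42.4 and 39.7 FPKM at 0 Gy and at 36.9, 34.7 and 36.7 FPKM at 10 Gy. Its log2 change of -0.19 (standard error 0.039, 95% interval -0.28 to -0.10, adjusted p = 0.0099) was called with each library left out in turn. It was the largest called change among the peroxiredoxins.

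PRDX5 encodes an atypical 2-Cys enzyme found in several compartments, and PRDX6 a 1-Cys enzyme reduced by glutathione. PRDX5 (chromosome 11, from 64318088 to 64321811) was at 100.1, 84.95 and 85.3 FPKM at 0 Gy and at 79.2, 79.0 and 79.5 FPKM at 10 Gy. Replicate 1 stood well above the others at 0 Gy, while the values at 10 Gy were nearly equal. The log2 change was -0.18 (95% interval -0.33 to -0.03, adjusted p = 0.062) with all libraries. Without replicate 1 at 0 Gy it was smaller, at -0.10, but called (adjusted p = 0.0166), and it was also called without replicate 2 at 0 Gy (adjusted p = 0.0479), over genes averaging 5 FPKM or more (adjusted p = 0.0363) and over protein-coding genes alone (adjusted p = 0.0261). PRDX6 (chromosome 1, from 173477266 to 173488807) was at 114, 109 and 101 FPKM at 0 Gy and at 101, 100.1 and 103 FPKM at 10 Gy. These ranges overlapped, with a log2 change of -0.09 (95% interval -0.20 to 0.02, adjusted p = 0.179). Without replicate 3 at 0 Gy, the lowest of that dose, the PRDX6 change was -0.13 and called (adjusted p = 0.0453).

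**Figure D2:**
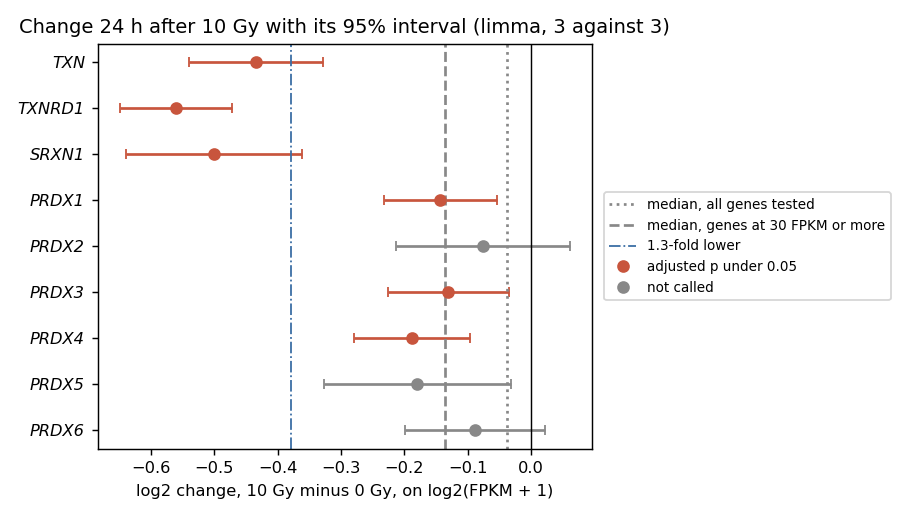
Log2 change of each gene at 10 Gy against 0 Gy on the log2(FPKM + 1) scale (horizontal axis) with its 95% interval from limma, 3 libraries per dose, and lines for the medians of all genes tested, of genes at 30 FPKM or more and for a 1.3-fold fall. TXN, TXNRD1 and SRXN1 lie beyond the 1.3-fold line, and the 6 peroxiredoxins lie around the median of genes at 30 FPKM or more.

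The median log2 change of the 6 peroxiredoxins was -0.14, and that of the 9 genes was -0.18. Across all genes tested the median was -0.04, but it was -0.14 over the 1623 genes averaging 30 FPKM or more, a level that every peroxiredoxin exceeded. Of those abundant genes, 50.0% were called lower, and 6.53% were called lower at 1.3-fold or more. Of the same genes, 1.23% had a more negative change than TXNRD1 and 3.76% a more negative change than TXN. The shares for the peroxiredoxins ranged from 34.9% for PRDX4 to 65.7% for PRDX2. To 2 decimals, the peroxiredoxin median was thus that of abundant genes at large.

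Small changes of this size depended on how libraries were scaled. The deposited values contain a factor per library, between 0.973 and 0.991 at 0 Gy and between 1.03 and 1.04 at 10 Gy. Rescaling each library to the same FPKM total (TPM) moved the median log2 change of all genes from -0.04 to 0.08. TPM values are larger than FPKM while the pseudocount stayed at 1, so this setting also lowered the weight of the pseudocount. With a pseudocount of 0.1 on the deposited FPKM, the median was -0.05, with 1423 genes higher and 2879 lower of 12128. The parts of scaling and pseudocount in the TPM values were not tested. The calls over all genes went from 23.7% lower and 11.9% higher to 8.79% lower and 25.7% higher in TPM, to 11.9% lower and 21.1% higher with upper quartile scaling, and to 13.6% lower and 18.9% higher without the factor per library. With TPM and with upper quartile scaling, TXN, TXNRD1 and SRXN1 were the only members called lower, and PRDX2 and PRDX6 turned to changes just above 0 (up to 0.05). The TXN change was -0.31 in TPM (adjusted p = 0.00093), that of TXNRD1 was -0.44 (adjusted p = 0.00050) and that of SRXN1 was -0.44 (adjusted p = 0.0021). TXN fell short of 1.3-fold in TPM, with upper quartile scaling (-0.34), without the factor per library (-0.36) and per read outside the mitochondrial chromosome (-0.36), so that 2 of the 9 genes passed it in these 4 of 5 other scalings. These 3 genes were called lower in all 18 alternatives tried, while PRDX1 was called in 9, PRDX3 in 6 and PRDX4 in 16 of them. The alternatives draw on the same 6 libraries, and the share of all genes called lower in all 18 was not computed.

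**Figure D3:**
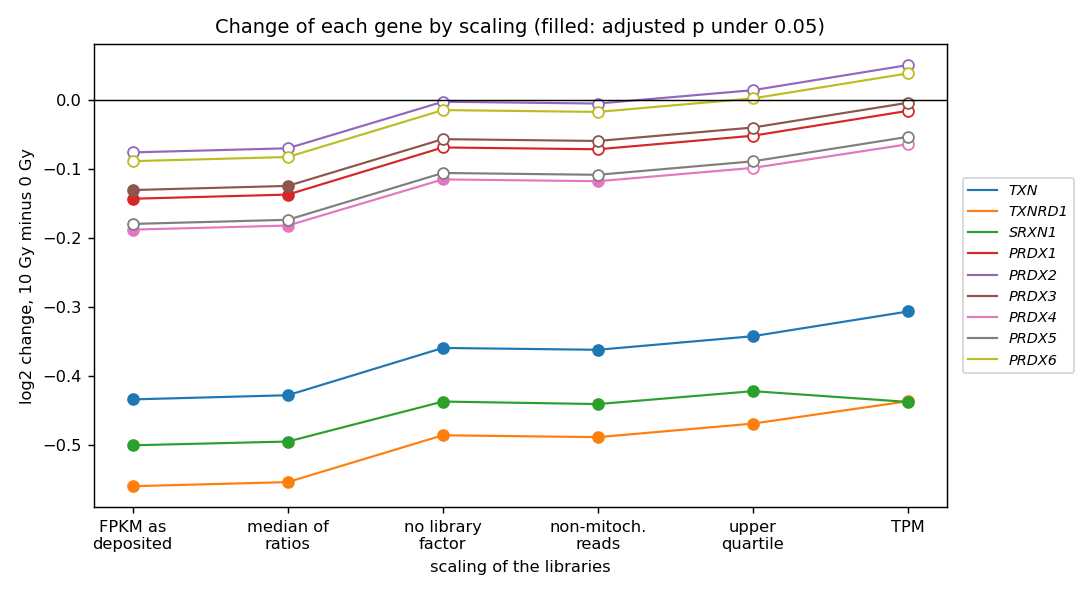
Log2 change at 10 Gy against 0 Gy (vertical axis) of each gene under 6 scalings of the libraries (horizontal axis), with filled points for adjusted p under 0.05. TXN, TXNRD1 and SRXN1 lie between -0.31 and -0.56 and are filled throughout, and the peroxiredoxins move towards 0 and lose their calls in TPM.

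Ratios of genes within a library do not depend on its scaling. PRDX1 was taken as the denominator as the most abundant peroxiredoxin, after the values were seen, so the ratios are given without a test. The ratio of TXN to PRDX1 was 2.79, 2.71 and 2.78 at 0 Gy and 2.28, 2.22 and 2.26 at 10 Gy. That of TXNRD1 to PRDX1 was 0.532, 0.581 and 0.547 at 0 Gy and 0.410, 0.416 and 0.411 at 10 Gy. For SRXN1 the ratio was 0.0366, 0.0370 and 0.0367 at 0 Gy and 0.0268, 0.0252 and 0.0294 at 10 Gy. In each case every library at 10 Gy lay below every library at 0 Gy. The share of all genes whose ratio to PRDX1 separates by dose was not computed. In FPKM, the doses did not overlap for 51.9% of genes tested. The ratios of PRDX2, PRDX3, PRDX4, PRDX5 and PRDX6 to PRDX1 all overlapped between the doses, with log2 differences between -0.05 and 0.07.

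**Figure D4:**
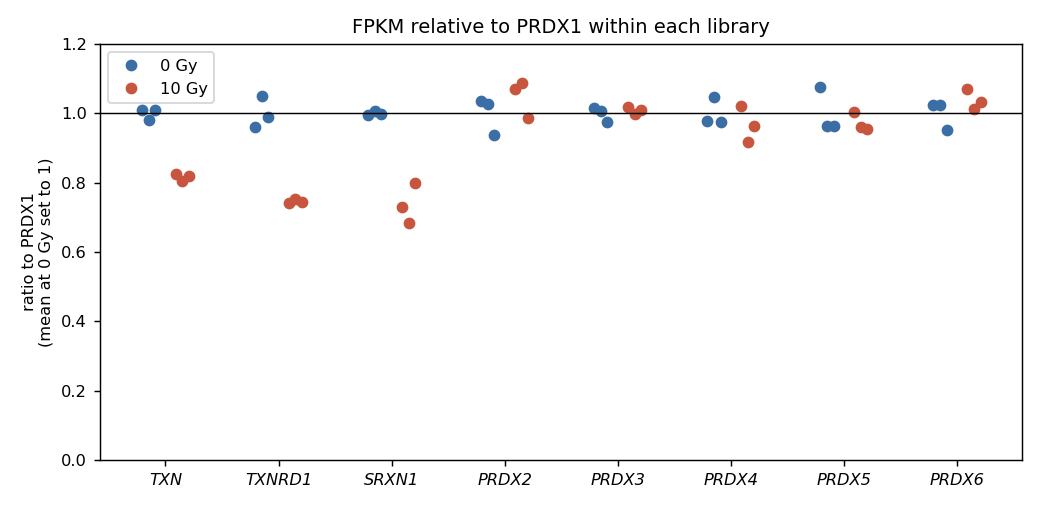
FPKM of each gene relative to PRDX1 in the same library, divided by the mean of that ratio at 0 Gy (vertical axis, from 0), for 3 libraries at 0 Gy (blue) and 3 at 10 Gy (red). The doses separate for TXN, TXNRD1 and SRXN1 and overlap for the other peroxiredoxins.

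At 0 Gy the order of levels per kilobase was TXN, PRDX1, TXNRD1, PRDX6, PRDX5, PRDX3, PRDX2, PRDX4 and SRXN1. The length used was that of all annotated exons of a gene together, such as 6708 bases for TXNRD1 and 893 for PRDX5. The length of the transcripts present is not known, so this order and the shares below depend on the annotation. In reads over the 6 libraries, TXNRD1 (77593) exceeded TXN (69123), and PRDX3 (33388) exceeded PRDX5 (9662). The ranges of TXNRD1 and PRDX6 overlapped, and TXNRD1 was the higher in 2 of 3 libraries. All other neighbours in the order had ranges that did not overlap, although PRDX5 exceeded PRDX3 by a mean ratio of only 1.12. At 10 Gy the order of the means was the same except that TXNRD1 moved from the third to the fifth place, below PRDX6 and PRDX5. Its range there (71.5 to 75.9 FPKM) overlapped that of PRDX3 (71.4 to 74.7 FPKM), the next in the order. The peroxiredoxins kept nearly the same shares of their summed FPKM in the 6 libraries. PRDX1 made up between 33.8% and 35.5% of the sum, PRDX6 between 18.4% and 19.6% and PRDX4 between 6.61% and 7.47%. The 17 annotated pseudogenes of these genes (of TXN and of PRDX1 to PRDX4) held 89 reads in all 6 libraries together, against 284485 on the members, so few reads were counted on those copies.

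Genes that feed or use the system, from lists written with earlier results of these data known, were counted in the same fit. Of 64 listed genes 62 were tested, and 25 (40.3%) were called lower and 4 higher, against 23.7% lower over all genes tested and 50.0% lower among genes at 30 FPKM or more. In TPM, 13 of the 62 were called lower and 9 higher, against 8.79% and 25.7% of all genes, so these counts depended on the scaling. The largest share was among NRF2 targets outside the 9 genes, of which 6 of 7 (85.7%) were called lower and 5 by at least 1.3-fold, with a median log2 change of -0.46. SLC7A11, the cystine transporter subunit, was at 17.4, 19.6 and 19.3 FPKM at 0 Gy and at 10.6, 11.4 and 11.8 FPKM at 10 Gy, a log2 change of -0.69 (standard error 0.057, adjusted p = 0.00059). NQO1, a quinone reductase and the most abundant of the list, was at 138, 127 and 127 FPKM at 0 Gy and at 88.8, 90.8 and 94.0 FPKM at 10 Gy, a log2 change of -0.51 (standard error 0.044, adjusted p = 0.00062). None of these libraries overlapped between doses. GCLM, the modifier subunit of glutamate-cysteine ligase, changed by -0.46, OSGIN1 by -0.50 and HMOX1, heme oxygenase 1, by -0.38 on the log2 scale (adjusted p = 0.00048, 0.0011 and 0.0035). In TPM, 5 of the 7 were called lower and GCLC was not (adjusted p = 0.300).

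Among regulators of NRF2 and its partners, 4 of 6 (66.7%, against 23.7% of all genes tested) were called lower, all by less than 1.3-fold. KEAP1, the adaptor that marks NRF2 for degradation and the most abundant of them, was at 47.3, 42.0 and 43.0 FPKM at 0 Gy and at 35.3, 35.1 and 36.3 FPKM at 10 Gy (log2 change -0.30, adjusted p = 0.0037). MAFG changed by -0.30 (adjusted p = 0.00071), MAFF by -0.23 (adjusted p = 0.0067) and NFE2L2, which encodes NRF2, by -0.21 (adjusted p = 0.0037). In TPM the calls of MAFF and NFE2L2 were lost (adjusted p = 0.0696 and 0.0926), and those of KEAP1 and MAFG remained.

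Of 9 proteins reduced or bound by thioredoxin, 3 were called lower and 1 higher, a share lower (33.3%) near that over all genes tested (23.7%). RRM2, the cell-cycle dependent subunit of ribonucleotide reductase, was at 35.3, 35.6 and 34.6 FPKM at 0 Gy and at 22.5, 21.0 and 21.5 FPKM at 10 Gy, a log2 change of -0.67 (standard error 0.035, adjusted p = 0.00023). APEX1, a DNA repair endonuclease and the most abundant of this list, changed by -0.39 (adjusted p = 0.00071) and RRM1, the large subunit of the reductase, by -0.25 (adjusted p = 0.0019). RRM2B, the subunit induced by DNA damage, rose by 0.28 (adjusted p = 0.0054). These 4 calls held in all 18 alternatives.

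Of 12 thioredoxin relatives and regulators, 2 (16.7%, against 23.7% of all genes tested) were called lower and 1 higher, and 9 were not called. Their median log2 change was -0.12. TXN2, mitochondrial thioredoxin and the most abundant of them, changed by -0.19 (adjusted p = 0.020, lost in TPM at 0.230), TXNDC17 by -0.25 (adjusted p = 0.0046) and NXN, nucleoredoxin, by 0.23 (adjusted p = 0.0020). TXNIP, which binds and inhibits thioredoxin, was at 17.7, 17.9 and 18.0 FPKM at 0 Gy and at 17.3, 17.6 and 17.15 FPKM at 10 Gy, a log2 change of -0.04 that was not called (95% interval -0.11 to 0.03). Mitochondrial TXNRD2 was at 3.38 ± 0.155 and 2.96 ± 0.163 FPKM (SD, n = 3 each) and was not called (adjusted p = 0.077).

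Of 5 glutaredoxin and glutathione reductase genes, 3 (60%, against 23.7% of all genes tested) were called lower. In TPM 2 were lower and 1, GLRX, higher (adjusted p = 0.0312), against 8.79% and 25.7% of all genes. The largest change was in GSR, which reduces glutathione with NADPH (log2 change -0.32, adjusted p = 0.00081). GLRX5, the most abundant of them, was not called (log2 change -0.14, adjusted p = 0.085). Of 9 tested genes for other enzymes that remove peroxide or superoxide, 4 (44.4%, against 23.7% of all genes tested) were called lower and 2 higher. GPX1, the most abundant, was at 192, 166 and 169 FPKM at 0 Gy and at 150.5, 149 and 145 FPKM at 10 Gy (log2 change -0.24, adjusted p = 0.017). GPX7 was at 1.05, 1.35 and 1.56 FPKM at 0 Gy and at 1.98, 2.17 and 2.13 FPKM at 10 Gy, a log2 change of 0.42 (adjusted p = 0.011). In TPM, 0 of these 9 were called lower and 3 higher, against 8.79% and 25.7% of all genes, and the GPX1 change was -0.11 (adjusted p = 0.121).

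Of 6 genes for disulfide partners of PRDX4 in the endoplasmic reticulum, PDIA6 alone was called lower (16.7%, against 23.7% of all genes tested). The log2 change of PDIA6 was -0.17 (adjusted p = 0.0068, lost in TPM at 0.294). P4HB, the most abundant, had a log2 change of -0.01 (adjusted p = 0.911). In TPM 0 of the 6 were called lower and 2 higher, against 8.79% and 25.7% of all genes. The 2 were P4HB (log2 change 0.12, adjusted p = 0.0118) and PDIA3 (adjusted p = 0.0163). Of 6 genes for selenocysteine insertion, which TXNRD1 needs, 2 (33.3%, near the 23.7% of all genes tested) were called lower. They were SECISBP2 (log2 change -0.27, adjusted p = 0.012) and SEPHS2 (-0.13, adjusted p = 0.033). SEPHS1, the most abundant, was not called (adjusted p = 0.090). In TPM both calls were lost (adjusted p = 0.0739 and 0.877). Neither of the tested sestrin genes was called. SESN2, the more abundant, had a log2 change of -0.11 (adjusted p = 0.116).

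**Figure D5:**
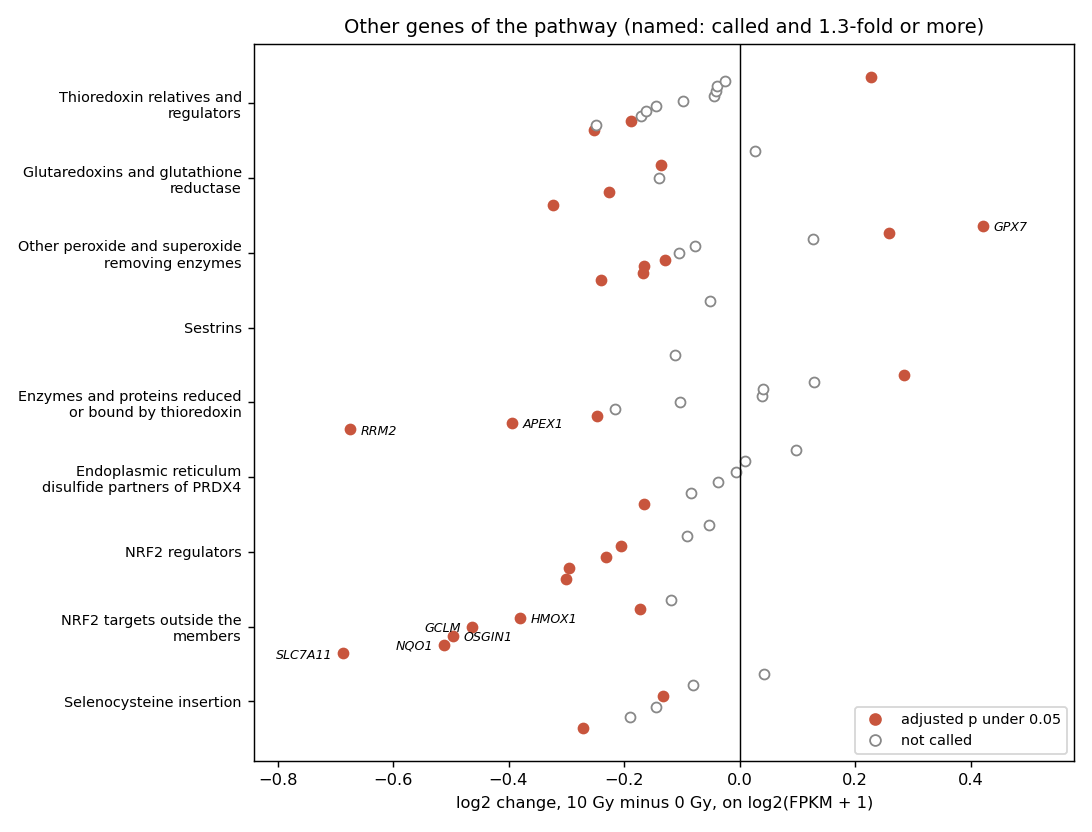
Log2 change at 10 Gy against 0 Gy on the log2(FPKM + 1) scale (horizontal axis) of the 62 tested genes of the 9 lists (rows), filled where the adjusted p from limma was under 0.05 and named where the change was also at least 1.3-fold. The NRF2 targets stand farthest to the left as a list, with 6 of 7 called lower.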

How the data were processed

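RNA-sequencing libraries of SCR cells at 0 Gy (n = 3) and 10 Gy (n = 3) were grouped by their titles. The authors deposited FPKM values per gene from polyA libraries. The submitters' processing notes name HISAT2 and GRCh38, and the counting program is not given in the sources used here. Identifiers matched GENCODE 29 for all 58735 genes, with equal coordinates for 58724. Multiplying FPKM by gene length and the implied depth gave whole reads (within 0.05) for 100% of values above 0. These reads gave the depth and the read numbers quoted, and they went into the simulated data. The scalings without the factor per library and per read outside the mitochondrial chromosome were also built from them. The main fit used the deposited FPKM.

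The doses were compared by limma (version 3.58.1 under R 4.3.3) after the transform log2(FPKM + 1). The eBayes step used the intensity trend, genes averaging under 1 FPKM were left out, and calls were made at a Benjamini-Hochberg adjusted p under 0.05. A fold change on this scale understates the change of low genes. The fit was tried on simulated data with 200 changed genes of 12128 per draw. It called 95.0% of 2-fold and 59.1% of 1.3-fold changes, and 5.84% of its calls were unchanged genes. The draws held no shift in scale between doses, so they do not bear on the choice of scaling. They changed as many genes up as down and gave every gene the same spread beyond that of counting. In the data 35.6% of genes tested were called, so the simulated shares need not hold for the main fit. Named genes were the 9 members, listed genes called at 1.3-fold or more, and the most abundant gene of each list. Genes that share exon bases with members, and the 3 genes most correlated with each called member, were also named. Pseudogenes are given as totals. Of 7 genes overlapping a member by position, those not named above share no exon bases with it, such as RPL18AP3 inside TXNRD1 (136 FPKM at 0 Gy). Genes named beyond these, such as TXNIP, were chosen after their values were seen. The values of 1 listed gene are not reported here. The members and lists were chosen with earlier results of these data known. Plots came from matplotlib 3.10.9 under Python 3.11.15.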

Additional observations from a re-analysis of the deposited data

How the results depend on the processing

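Alternatives changed the scaling of libraries, the pseudocount, the filter on low values, the eBayes settings, protein-coding genes alone, the replicate block and each library left out in turn. A pair of scalings, FPKM without the factor per library and FPKM per read outside the mitochondrial chromosome, was chosen after seeing the data. TXN, TXNRD1 and SRXN1 were called lower in all 18, as were some listed genes, among them GSR, KEAP1 and MAFG. The cause of the differences that follow was not tested, and some of the fits held fewer genes or samples.

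Of the 9 members, 3 were called lower with upper quartile scaling and 3 in TPM, in place of 6. With a minimum of 5 FPKM and with protein-coding genes alone, 7 were called lower, with PRDX5 added. Over all genes tested in these fits, 2734 of 7262 and 3138 of 10491 were lower. The log2 change of PRDX2 turned to 0.0509 in TPM and 0.0144 with upper quartile scaling, and that of PRDX6 to 0.0388 and 0.00247. Over all genes, the counts called higher and lower were 1443 and 2874. They were 2556 and 1444 with upper quartile scaling, 3113 and 1066 in TPM, 2294 and 1651 without the factor per library, and 2245 and 1706 per read outside the mitochondrial chromosome. With a minimum of 5 FPKM 874 of 7262 genes tested were higher, and without a filter 1815 of 31650 were lower. With each library left out in turn, between 852 and 1393 genes were higher and between 1808 and 2630 lower, with the fewest without replicate 2 at 10 Gy and the next fewest (875 and 1830) without replicate 1 at 10 Gy. Of the listed pathway genes, 9 were higher in TPM and 2 without a filter, in place of 4, and 13 were lower in TPM and 16 with upper quartile scaling, in place of 25.

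Libraries with the same replicate number did not deviate together (correlations of their deviations from the dose means of -0.04, -0.03 and -0.10 across genes). With 3 libraries per dose, such correlations cannot tell whether the numbers pair the libraries. With the replicate block, 1137 genes were called higher and 2366 lower, and 4 of the 9 members lower, with PRDX1 and PRDX3 lost. At the depth of these libraries, SRXN1 rested on 226 to 434 reads per library, and each other member on at least 1166.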

Other observations

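Across the 6 libraries, the 3 protein-coding genes (of those averaging 5 FPKM or more) whose log2(FPKM + 1) was most like that of TXN were PTMA, TMEM106C and RBBP8, with Pearson correlations of 0.999 each. For TXNRD1 they were SEPTIN10, SMG9 and DNAJC14 (0.999, 0.999 and 0.998), and for SRXN1 they were AAGAB, TPM4 and TFE3 (0.999 each). The symbol of SEPTIN10 stands as a date in the deposited table and was matched by its identifier. For PRDX1 they were PCLAF, SMIM29 and SEC61G, for PRDX3 RCN1, PGAM1 and CXXC1, and for PRDX4 POPDC3, AAAS and TMEM183A, with correlations between 0.996 and 0.999. The search covered 6901 genes, and over 6 libraries of 2 doses the points share the gap between doses, so the correlations are a description with no test. PTMA changed by -0.39 on the log2 scale, from 279 to 212 FPKM. A correlation does not measure the size of a change. The genes named for SRXN1 (-0.50) changed by -0.17, -0.12 and -0.25, and those for TXNRD1 (-0.56) by -0.17, -0.41 and -0.37. Those for PRDX1 (-0.14) changed by -0.37, -0.33 and -0.18.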
